A study of Mus musculus with 15 samples.

Results

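Promoter-like RevErb sites are the binding sites shared by RevErbalpha and RevErbbeta in mouse macrophages at which the authors' table marks trimethylation of histone H3 lysine 4 (H3K4me3) as higher than monomethylation (H3K4me1). They were taken by that class mark and make up 301 of 1544 shared sites. The other 1243 sites are enhancer-like, 687 of them genic and 556 intergenic. The histone levels behind the mark, and the margin it needed, are not stated in the sources used here, so the class is the authors'. Of the 301 sites, 152 lay at most 1000 bp from the start of the gene assigned to them and are called near sites, and 149 lay farther away and are called far sites.

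All RAW cells, a mouse macrophage line, have the genetic background C57Bl6 in the labels. RevErb binding was measured by pull-down on streptavidin beads in RAW cells that expressed biotinylated BLRP-RevErbalpha or BLRP-RevErbbeta, with BirA control RAW cells as background. The column read here as that background is named BirA-input and could also hold an input library. RNA initiation came from 5'GRO-seq, an assay of capped 5' ends of nascent RNA, in BTEV-Ctrl RAW cells (control) and in BLRP-RevErba RAW cells (tagged RevErbalpha). In the latter cells tagged RevErbalpha is added to the cells' own receptors. Nascent transcription came from GRO-seq, a run-on assay of engaged RNA polymerase, on bone marrow derived macrophages of C57Bl6 background with floxed alleles of both genes, RevErbalpha flox/flox and RevErbbeta flox/flox, without Cre (WT) or together with Tie2-Cre (DKO). Both genotypes thus carry the floxed alleles, and Cre in DKO is driven by the Tie2 promoter, which is known to be active in endothelial as well as blood-forming cells. The labels give no age, no count of animals and no count of clones. Each of these 7 groups has 1 sample, and repeat runs (3 for each RevErb and 2 for each genotype at genes) were treated as runs of that sample. Differences between conditions therefore rest on single samples and are given without p-values. Treated libraries are also listed in the header of the table, and a run's treatment cannot be read from its column name.

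RevErbalpha and RevErbbeta are nuclear receptors of the circadian clock. They bind DNA at the core site AGGTCA, the letters of a nuclear receptor monomer, preceded by an AT-rich flank and repress transcription by recruiting corepressors, and the clock gene Arntl and the gene of RevErbalpha itself, Nr1d1, are classical targets. H3K4me3 is the usual mark of active promoters, whereas H3K4me1 without H3K4me3 is the usual mark of enhancers.

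The sequences at the gene starts are shown first, and they were searched for the receptors' own core site. RefSeq windows of 250 bases before to 50 bases after the start (build GRCm38.p6) were found for 121 of 147 genes with a near site, 112 of 145 genes with a far site and 27025 genes in all. The peaks themselves are on build mm9, for which no genome was used, so a match says that the letters stand at the gene's start and not that they lie under the peak. TAGGTCA, called the flanked core site here, holds 1 base of the flank, and the bases before it were not required to be AT-rich. Searched on both strands, it was present in 8 of 121 windows of near-site genes (6.61%, exact Clopper-Pearson 95% interval 2.90 to 12.6), in 1 of 112 windows of far-site genes (0.893%) and in 2.97% of all windows. The 8 near-site matches follow, each with 11 bases on either side and the core site in capitals, read along the strand that carries it.
Arntl: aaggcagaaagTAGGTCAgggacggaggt
Leo1: ctggagaaaacTAGGTCAcaaaagtaaag
Ankrd40: cgaaaagtatcTAGGTCAatgttgtcaca
Ccl3: agaagaaagaaTAGGTCAcgagttgagag
Cst3: ttcttgccttgTAGGTCAgatacctctta
S100a4: cagggtataaaTAGGTCAgattgttgggc
1700096K18Rik: tcgggacgaacTAGGTCAcgcgcttcttg
Mrpl53: cctgcgagatcTAGGTCAgcaccacccca

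The match began 30 bases after the start in Arntl, and 63, 20, 187, 114, 25, 153 and 228 bases before it in Leo1, Ankrd40, Ccl3, Cst3, S100a4, 1700096K18Rik and Mrpl53. In Cst3 and Mrpl53 it was on the strand opposite to the gene. The matches sat mostly at the more strongly bound starts. Of the 10 most strongly bound near-site genes with a window 3 held it (Arntl, Leo1 and Ankrd40), of the top 20 it was 5, and of the 60 less strongly bound genes it was 1. The sites of Ccl3, Cst3 and Mrpl53 lay 504, 206 and 77 bp before the start. By these distances their matches fell outside the 157 bp site, provided that both sources use the same start. Ccl3 and Cst3 are among the 5 in the top 20. The median RevErb level was 6.45 at the 8 near sites with the letters and 5.22 at the others, on the log2 scale defined with the binding values. The windows of Leo1 and Ankrd40, where the core site stands just before the start, and that of Nr1d1, which holds none of the 8 motifs searched, are printed for comparison, as the 250 bases before the start on the gene's strand with TAGGTCA in capitals. They span chr9:75441274-75441523 (plus strand), chr11:94327751-94328000 (plus strand) and chr11:98775378-98775627 (minus strand). The search took exact letters only, so another form of a receptor site in these windows would not have been found.
Leo1: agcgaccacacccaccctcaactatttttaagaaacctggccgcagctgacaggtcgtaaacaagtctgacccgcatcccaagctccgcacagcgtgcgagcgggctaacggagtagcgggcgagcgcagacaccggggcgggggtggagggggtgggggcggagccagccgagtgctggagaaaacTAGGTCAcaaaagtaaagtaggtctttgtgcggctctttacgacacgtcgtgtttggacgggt
Ankrd40: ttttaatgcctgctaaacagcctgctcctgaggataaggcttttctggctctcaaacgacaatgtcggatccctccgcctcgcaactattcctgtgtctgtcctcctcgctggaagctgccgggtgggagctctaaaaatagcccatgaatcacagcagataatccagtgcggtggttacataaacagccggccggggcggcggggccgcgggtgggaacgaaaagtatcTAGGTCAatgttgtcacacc
Nr1d1: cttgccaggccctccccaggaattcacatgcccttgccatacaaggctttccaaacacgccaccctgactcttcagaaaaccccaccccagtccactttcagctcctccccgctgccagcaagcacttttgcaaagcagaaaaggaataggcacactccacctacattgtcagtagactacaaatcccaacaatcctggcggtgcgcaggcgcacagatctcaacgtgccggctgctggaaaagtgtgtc

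The other 7 motifs searched, on both strands, describe what kind of starts these are. CCGGAAG, the core letters bound by ETS factors, was in 30.6% of near-site windows, 12.5% of far-site windows and 9.93% of all windows. AGGAAGT, which overlaps the letters that the macrophage ETS factor PU.1 binds, was in 18.2%, 11.6% and 10.7%. GGGCGG, the GC box of Sp factors, was in 62.8%, 66.1% and 38.2%, and the median GC content was 60.3%, 62.7% and 52.8%. Among protein-coding genes alone the GC box was in 62.6% of near-site windows and 49.2% of all windows, with a median GC content of 56.3% over all of them, and CCGGAAG was in 30.4% and 12.9%. CACGTG, the E-box of the clock activators, was in 13.2%, 9.82% and 8.09%. The plain core site AGGTCA was in 21.5%, 13.4% and 18.1%, TGANTCA, bound by AP-1, in 9.92%, 4.46% and 8.97%, and CCAAT in 35.5%, 45.5% and 41.1%.

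The promoter-like sites belonged to 287 genes, of which 273 had 1 site and 14 had 2, and 17 sites were assigned to a non-coding transcript. The 152 near sites were all the common peaks within 1000 bp of a start: of the 1243 enhancer-like sites none was that close, and the closest lay 1057 bp away. Position and the H3K4 class therefore cannot be told apart among sites near a start. Near sites crowded around the start itself. Their median distance was 127 bp, 36 lay within 50 bp and 66 within 100 bp, and 97 were upstream (63.8%, exact 95% interval 55.6 to 71.4), 54 downstream and 1 on the start. The sites just inside the limit were Ap3d1 (971 bp), Rad54l2 (990 bp) and Igsf8 (992 bp upstream), and those just outside were Mink1 (1006 bp), Lrrc58 (1022 bp) and H2afj (1048 bp). RevErb levels at these 6 sites ran from 4.88 to 5.98.

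**Figure D1:**
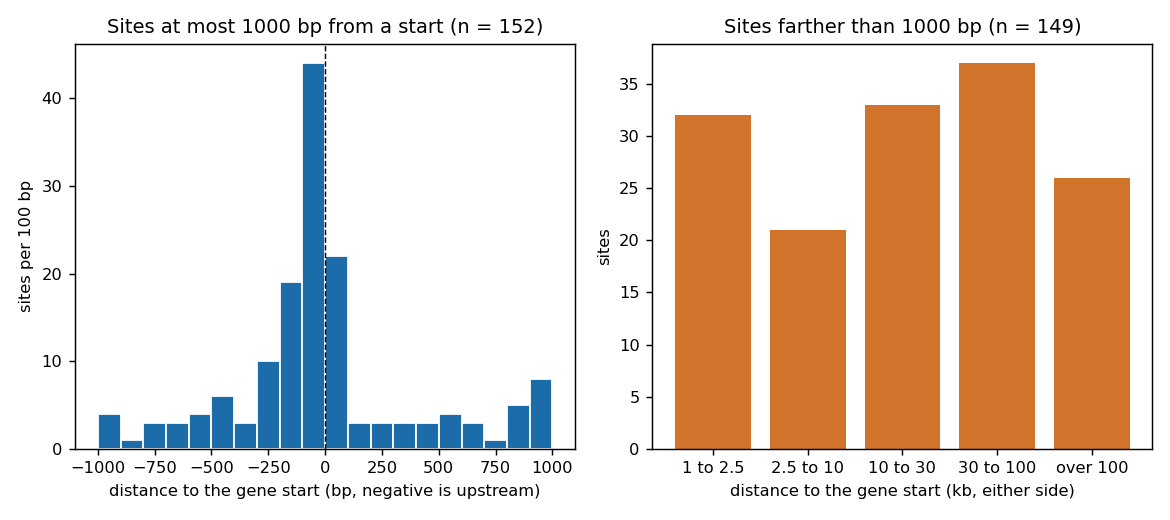
Left, number of near promoter-like sites in each 100 bp of distance to the assigned gene start (bp, negative is upstream). Right, number of far sites by distance (kb, either side). Near sites peak in the 100 bp before the start, and the far sites divide into 32 at 1 to 2.5 kb, 21 at 2.5 to 10 kb, 33 at 10 to 30 kb, 37 at 30 to 100 kb and 26 beyond.

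The far sites were not a fringe of the promoters. Their median distance was 19868 bp, and only 32 of 149 lay within 2500 bp. The farthest, assigned to Spry2, an inhibitor of growth factor signalling, was 3392170 bp from the start. The assignment is to the nearest expressed gene in the authors' list of starts, so a start that is not in that list would leave its site in the far set.

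RevErb levels were similar at promoter-like and enhancer-like sites, and those of Arntl, Nr1d1 and Npas2 were among the highest. Levels are log2 of tags per 10000000 plus 1 in a 157 bp window, and the RevErb level of a site is the mean of its RevErbalpha and RevErbbeta means. The median level was 5.28 at near sites, 5.70 at far sites, 5.57 at intergenic enhancer-like sites and 5.54 over all 1544 sites. BirA medians were 1.26 and 1.06, so near and far sites stood 4.20 and 4.57 above that background at the median. Far sites were higher in RevErbbeta, with a median of 6.01 against 5.26 at near sites, while RevErbalpha medians were 5.47 and 5.30. RevErbbeta exceeded RevErbalpha at 81 of 152 near sites (53.3%) and 102 of 149 far sites (68.5%), beside 66.1% of all common peaks. The median difference between the receptors was 0.08 at near and 0.42 at far sites, and it was 0.57 and 0.87 in the 3 runs deeper than 1000000 tags. It ran from −0.13 to 0.23 at near sites and from 0.03 to 0.53 at far sites when 1 run was left out. At near sites it was below 0 without RevErbalpha run 1 (−0.12) or RevErbbeta run 2 (−0.13), and at far sites it was 0.03 and 0.09 without these. The far value was above the near value in each of these settings.

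The site of Arntl, which encodes the clock activator BMAL1, was the most strongly bound near site (mm9 chromosome 7, 120350968 to 120351124, 67 bp after the start). RevErbalpha runs gave 6.86, 8.70 and 8.12 there, RevErbbeta runs 9.64, 8.28 and 9.82, and BirA 0.79. All 6 RevErb runs were far above BirA, and the receptors' runs overlapped. The Nr1d1 site 130 bp before the start (chromosome 11, 98636608 to 98636764) had 6.43, 8.19 and 8.50 for RevErbalpha, 8.74, 8.55 and 8.63 for RevErbbeta, and 1.61 for BirA. Here every RevErbbeta run was above every RevErbalpha run.

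The other strongly bound near sites were at genes outside the clock. Leo1, a subunit of the PAF1 elongation complex, had its site 18 bp before the start (chromosome 9, 75289235 to 75289391), with 6.68, 8.55 and 8.49 for RevErbalpha, 8.90, 8.25 and 8.66 for RevErbbeta and 1.52 for BirA. Bbc3, the proapoptotic gene also called PUMA, had 9.06, 7.18 and 7.92 for RevErbalpha, 6.81, 9.30 and 7.79 for RevErbbeta and 1.56 for BirA, with the widest spread between RevErbbeta runs among the 10 highest near sites. The remaining members of the 10 highest were Cars2, a mitochondrial cysteinyl-tRNA synthetase (7.59), Ankrd40, an ankyrin repeat gene (7.14), the phosphatase gene Ptp4a2 (7.07), the ubiquitin ligase gene Rffl (6.96), Slc17a5, the lysosomal sialic acid exporter (6.90), and Lpcat3, a phospholipid-remodelling acyltransferase (6.69).

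Among far sites the highest was that of Sap25, a component of the Sin3 corepressor complex, 11224 bp after the start. RevErbalpha runs gave 7.54, 9.13 and 8.70 there, RevErbbeta runs 10.42, 9.83 and 10.14, and BirA 1.54. Its level of 9.29 was the highest of all 301 sites, and all RevErbbeta runs were above all RevErbalpha runs. It was followed by Spry2 (8.06), Utp6, of the small-subunit processome (7.92), the zinc finger gene Zfp580 (7.90) and Npas2, a partner of BMAL1 (7.82). RevErbalpha runs 2 and 3 and RevErbbeta run 3 held only about 3 to 4 tags at the median promoter-like site, so single values of those runs are coarse.

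**Figure D2:**
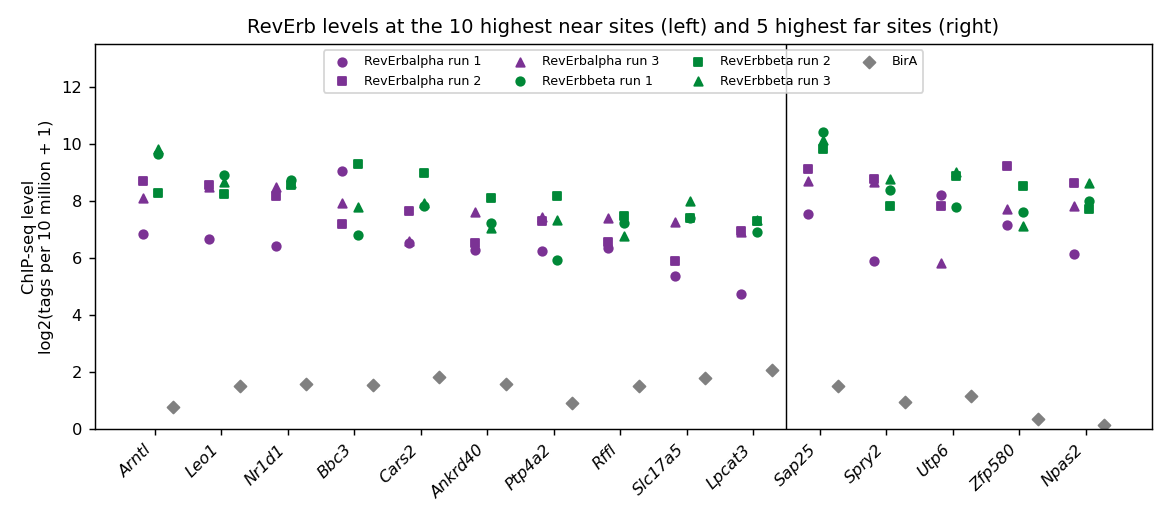
ChIP-seq level, log2(tags per 10000000 + 1), in each RevErbalpha run (purple), each RevErbbeta run (green) and BirA (grey) at the 10 most strongly bound near sites and the 5 most strongly bound far sites. The RevErb runs lie between 4.75 (RevErbalpha run 1 at Lpcat3) and 10.42 (RevErbbeta run 1 at Sap25), and BirA lies at 2.08 or below at all 15 sites.

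Capped nascent RNA differed between near and far sites much more than binding did. Near sites are by definition close to the start of an expressed gene, so a higher level there is partly built into the split. Of the 152 near sites, 88 lay within 200 bp of that start, inside the 500 bp counting window. At near sites the control 5'GRO-seq level in the 500 bp window had a median of 8.02 (quartiles 7.22 and 8.80, about 482 tags), against 3.96 at far sites (quartiles 0.60 and 7.44, about 27.2 tags), 5.58 at genic and 6.31 at intergenic enhancer-like sites. In tagged RevErbalpha cells the medians were 7.89 near (about 170 tags) and 3.08 far (about 5.40 tags). No near site was under 3 tags in both libraries. Of the far sites 50 of 149 were (33.6%, exact 95% interval 26.04 to 41.7), beside 33 of 687 genic and 24 of 556 intergenic enhancer-like sites.

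Those 50 far sites were bound as strongly as the rest. Their median RevErb level was 5.88 (4.39 to 7.92), against 5.60 at the other 99 far sites, and BirA was 1.04 there. Nascent RNA was low in bone marrow derived macrophages too, with site GRO-seq medians of 0.24 in WT and 0.25 in DKO, and 36 of the 50 were under 1 in both genotypes. Their median distance to a start was 37409.5 bp, and 32 lay beyond 30 kb. Utp6 was the most strongly bound of them, with 5'GRO-seq of 0.24 in control and 0.11 in tagged cells. These sites carry the promoter-like mark without measurable initiation at this depth, and the sources used here do not tell how much H3K4me3 or H3K4me1 they held.

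At the other end, 40 of 149 far sites (26.8%) had a control 5'GRO-seq level at or above the lower quartile of near sites. The share among enhancer-like sites was 25.3% (315 of 1243). Of the 40, 18 lay beyond 10 kb from the start assigned to them. The highest of these 18 were the sites of the non-coding gene 6820431F20Rik (10.11 in control and 9.98 in tagged cells), of Maml3, a Notch coactivator (10.06 and 9.86), and of Ptma, encoding prothymosin alpha (9.80 and 9.39). The far set was thus a mixture of silent sites, intermediate sites and sites that initiated like promoters.

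Tagged RevErbalpha was compared with control to ask whether added receptor goes with less initiation at these sites. The median near site differed little, and a small set of sites, led by Nr1d1 itself, was much lower. A site was counted as lower or higher at a difference of at least 1 on the log2 scale. Of the near sites 10 of 152 were lower (6.58%, exact 95% interval 3.20 to 11.8) and of the far sites 27 of 149 (18.1%, 12.3 to 25.3), together 37 of 301, against a background of 20.0% of all common peaks. Among genic and intergenic enhancer-like sites 25.8% and 17.1% were lower. All 27 lower far sites were among the 99 with at least 3 tags in 1 or both libraries (27.3%, exact 95% interval 18.8 to 37.1). Of the 50 far sites under 3 tags in both libraries none was lower, and the background was not restricted in this way. No near site and 5 far sites were higher, against a background of 4.92%. Such intervals cover the counting of sites in 1 pair of libraries, and sites are not replicates.

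Part of the gap between near and far rested on sites with few tags. In 15 of the 27 lower far sites, and 2 of the 10 lower near sites, the tagged library held under 3 tags. With levels under 3 tags raised to the level of 3 tags, 8 near sites (5.26%) and 16 far sites (10.7%) were lower by at least 1, against 16.8% of all common peaks. With 10 added to the scaled tags in place of 1, the counts were 7 near and 10 far. With levels raised to 3 tags the intervals of near (2.30 to 10.1) and far sites (6.26 to 16.9) overlapped. The level of 3 tags is 1.38 in control and 2.36 in tagged cells. A site under 3 tags in both libraries is therefore set higher in tagged cells and cannot count as lower. The 50 such far sites stayed among the 149, so the overlap does not settle whether near and far sites differ.

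The median difference was −0.09 at near sites and −0.13 at far sites, against −0.23 over all common peaks, −0.33 at genic and −0.21 at intergenic enhancer-like sites. Centred on the median of all common peaks, near and far sites stood at 0.15 and 0.10. Near sites below 0 numbered 89 of 152, and far sites 87 of 149. The far median included the 50 silent sites, at which the tagged value was the higher by a median of 0.28 under 3 tags.

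**Figure D3:**
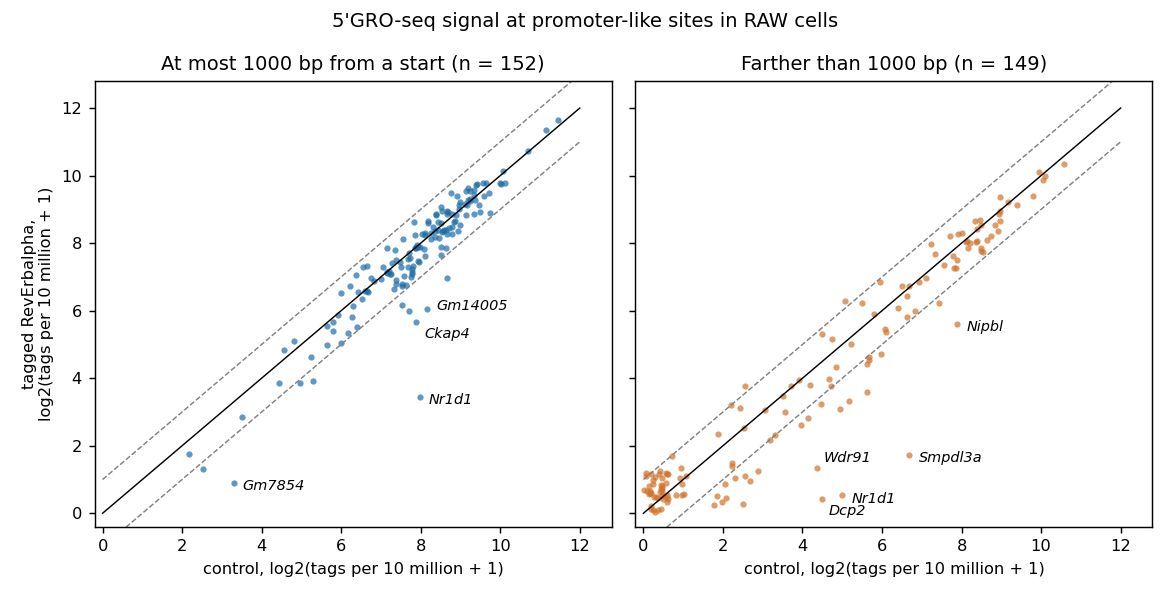
5'GRO-seq level, log2(tags per 10000000 + 1), in tagged RevErbalpha cells against control cells at each near site (left) and far site (right). The solid line marks equal levels and the dashed lines a difference of 1. Near sites cluster along the line at high levels, Nr1d1 lies far below it in both panels, and the far panel has a group of sites at the origin.

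The Nr1d1 site 130 bp before the start read 7.97 in control and 3.44 in tagged RevErbalpha cells, a difference of −4.53 and the largest at any near site (about 467 and 7.13 tags). The second Nr1d1 site, 1423 bp after the start (chromosome 11, 98635055 to 98635211), read 5.0 and 0.53, a difference of −4.47 in which the tagged library held under 3 tags. Taken at the level of 3 tags the difference there was −2.64. Both sites are at the cells' own Nr1d1 gene, and the sources used here do not tell whether the tagged construct shares sequence with these windows. Arntl read 5.29 in control and 3.91 in tagged cells, a difference of −1.38 at about 71.3 and 10.2 tags.

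The other near sites lower by at least 1 were spread over genes of many kinds. Their binding ranged from weak to strong, as with RevErb levels of 4.46 at Irf2bpl and 6.61 at the Slc15a3 site. Ckap4, an endoplasmic reticulum membrane protein, read 7.87 and 5.66 at a site 923 bp after the start, although its RevErb level of 3.79 was the lowest of the 301 sites. Gm14005, the long non-coding RNA that RefSeq calls Morrbid, read 8.16 and 6.06. Slc15a3, a lysosomal peptide and histidine transporter, read 7.70 and 6.0, Eif4ebp1, the inhibitor of the cap-binding factor eIF4E, 8.67 and 6.98, and the transcription cofactor gene Irf2bpl 7.53 and 6.16. Gm7854 (3.30 and 0.89), the SUMO protease gene Senp2 (2.52 and 1.32) and the 14-3-3 gene Ywhag (4.97 and 3.85) completed the 10.

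Several of the most strongly bound near sites had little difference. Leo1 was level at 7.85 in control and 7.87 in tagged cells, Ankrd40 at 6.66 and 6.58 and Ptp4a2 at 7.73 and 7.56. Bbc3 (7.55 and 8.11), Rffl (5.99 and 6.52) and Lpcat3 (8.19 and 8.66) were somewhat higher in tagged cells, none by 1. Leo1 and Ankrd40 hold the flanked core site printed above as Arntl does, and the median difference was −0.10 at the 8 near-site genes with TAGGTCA and −0.07 at those without. When all common peaks were cut into 5 equal groups by RevErb level, near sites had medians of −0.02, −0.04, −0.15, −0.19 and −0.17 from the weakest to the strongest group, with 3, 0, 2, 2 and 3 sites lower by at least 1. In the far set the counts were 1 of 28, 2 of 22, 7 of 29, 5 of 39 and 12 of 31. The most strongly bound group of far sites held 12 of the 27 lower sites, but the counts did not rise evenly. Of all common peaks 20.0% were lower, and their counts by group are not given here. The tagged library held under 3 tags at 15 of the 27, and the groups were counted without raising those levels. A link with binding was not tested.

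Among far sites Smpdl3a, a phosphodiesterase-like gene of macrophages, had the largest difference of the 301, with 6.69 in control and 1.72 in tagged cells 9758 bp before the start (about 191 and 1.66 tags). At the level of 3 tags this is a difference of −4.33. The near site of the same gene, 375 bp after the start, differed by −0.30. In bone marrow derived macrophages the far site read 0.88 in WT and 1.18 in DKO. Dcp2, the mRNA decapping enzyme, read 4.48 and 0.42 at a site 446475 bp away, and Wdr91, an endosomal gene, 4.36 and 1.35. At the level of 3 tags these differ by −2.12 and −2.00. Nipbl, the cohesin loader, was the clearest well-covered case beyond 10 kb, at 7.89 and 5.61. Zfp580, among the 5 most strongly bound far sites, read 5.61 and 3.60, and Mpeg1, the macrophage perforin gene, 7.44 and 6.24.

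The 5 far sites higher in tagged cells were Fnip2 (5.08 and 6.29), Zmiz1 (2.56 and 3.76), Vamp3, Tmem98 and B930059L03Rik, and Vamp3 and Tmem98 held under 3 tags in both libraries. Among sites above the median level of all common peaks, the largest positive differences were at Tmem86a (0.90), the lymphotoxin receptor gene Ltbr (0.80), Snord123 (0.74), Rad54l2 at its site 9 bp after the start (0.73) and the class I histocompatibility gene H2-D1 (0.71), whose reads may be shared with close relatives.

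Position within the near window went with the difference, in bins chosen after the values had been seen. The median was −0.20 at 15 sites 500 to 1000 bp upstream, with 11 below 0 and 2 of the 10 lower near sites among them. Medians were 0.05 at 38 sites 100 to 500 bp upstream, −0.02 at 66 sites within 100 bp and −0.16 at 12 sites 100 to 500 bp downstream. At the 21 sites 500 to 1000 bp downstream the median was −0.59, and 20 of the 21 were below 0, with 5 of the 10 lower near sites among them. Of all 301 promoter-like sites 58.5% were below 0, and the median over all common peaks was also below 0. These 5 of 21 stand beside 20.0% of all common peaks that were lower by at least 1. Centred on the site, these windows begin at least 250 bp after the start, and they had a lower control level, with a median of 6.43 against 8.42 within 100 bp. The 5 far promoter-like sites 1000 to 2500 bp upstream had a median of −0.29, with 4 below 0. The 27 far promoter-like sites 1000 to 2500 bp downstream had a median of −0.56, with 21 below 0. The 17 enhancer-like sites in that interval had −0.67, with 10 below 0, and the 28 enhancer-like sites as far upstream had −0.71, with 20 below 0. Median differences below 0 at 1000 to 2500 bp were therefore seen in both classes. No enhancer-like site lay within 1000 bp of a start, so the 500 to 1000 bp bin allows no such comparison. Whether the libraries differ in how much signal from within genes they hold was not tested.

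**Figure D4:**
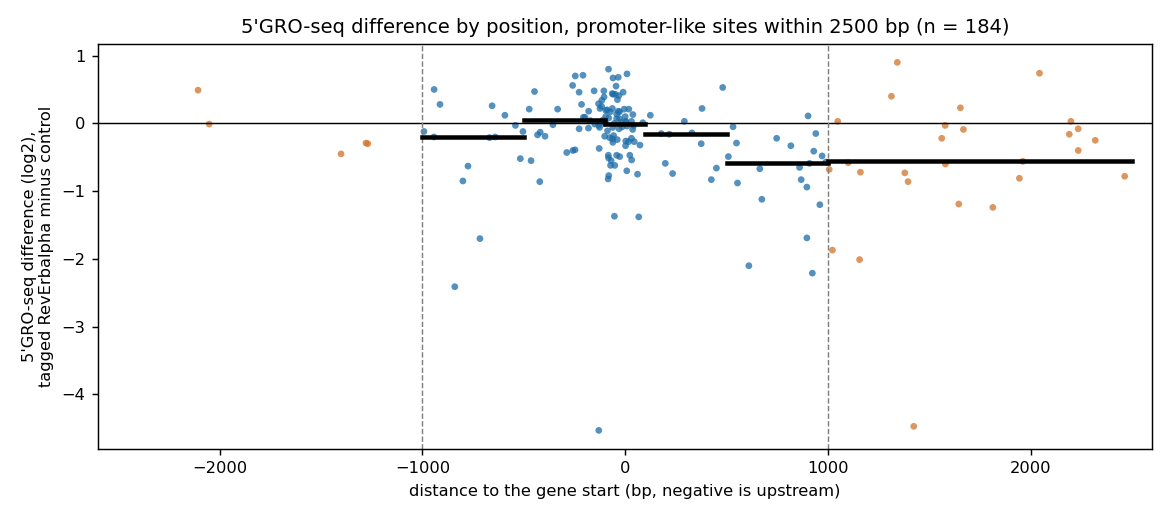
5'GRO-seq difference (log2, tagged RevErbalpha minus control) against distance to the gene start (bp, negative is upstream) for the promoter-like sites within 2500 bp, near sites in blue and far sites in orange. Horizontal bars are bin medians, which run from −0.20 at 500 to 1000 bp upstream and −0.02 within 100 bp to −0.59 at 500 to 1000 bp and −0.56 at 1000 to 2500 bp downstream.

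Genes with a pair of promoter-like sites allow the comparison within a gene. In 9 of the 14 such genes the site farther from the start had the lower difference. Slc15a3 differed by −0.82 at 84 bp and −1.70 at 716 bp upstream, and Gm14005 by −0.70 at 8 bp and −2.10 at 610 bp downstream. Rad54l2 read 0.73 at 9 bp and −0.57 at 990 bp, the proteoglycan gene Sdc4 0.19 at 95 bp and −0.81 at 1944 bp, and the integrin gene Itgb2 −0.05 at 14 bp and −0.60 at 1579 bp. Arid1a, a subunit of SWI/SNF remodellers, went the other way, with −0.85 at 800 bp and −0.06 at 4064 bp, and Nr1d1 was low at both of its sites. Cyth4 (−0.32 and −0.25), Emp1 (0.22 and 0.23) and Wrnip1 (−0.08 and 0.34) also had the higher value at the farther site. A trend within genes was not tested.

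Loss of both receptors was compared at the same sites in bone marrow derived macrophages. The sites of Nr1d1 had more nascent RNA in DKO, and the median of the class stayed close to 0. These cells differ from the RAW cells of the binding data, and in bulk libraries a change per cell and a change in the share of cells cannot be told apart. The macrophage gene Csf1r was well transcribed in all runs, at 12.71 and 12.33 in WT and 12.52 and 12.71 in DKO. Median site GRO-seq levels, log2 as deposited, were 5.35 in WT and 5.22 in DKO at near sites and 1.99 and 2.22 at far sites. The median of the site differences, DKO minus WT, was 0.00 near and 0.05 far, against 0.03 over all common peaks. Sites higher by at least 1 numbered 5 near and 5 far, or 3.32% of the 301 against a background of 3.37%. Sites lower by at least 1 numbered 0 and 2, or 0.664% against a background of 2.20%. The share of higher sites was thus near the background. With 10 added to the values before the logarithm, 0 near and 1 far sites were higher and none was lower.

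The Nr1d1 sites read 4.56 in WT and 6.16 in DKO at 1423 bp downstream, and 4.62 and 5.80 at 130 bp upstream. Npas2 read 1.10 and 2.45, a low level at which the difference was only 0.38 with 10 added. Its 5'GRO-seq levels were 0.98 in control and 0.53 in tagged cells, under 3 tags in both libraries. Arntl, just short of the limit, read 2.68 and 3.62. The remaining sites higher by at least 1 were at Hsp90aa1, an HSP90 chaperone gene (0.30 and 1.81), Rffl (3.03 and 4.35), Gatsl2 (2.28 and 3.46), Chchd2, a mitochondrial gene (3.16 and 4.28), Lpcat3 (3.38 and 4.41), Clec4e, which encodes the pattern recognition receptor Mincle (2.58 and 3.60), and Cdon (0.48 and 1.48). Of the 301 sites, both Nr1d1 sites and no others were lower by at least 1 with added RevErbalpha and higher by at least 1 in DKO, or 0.664%, against a background of 1.17% of all common peaks. Hsp90aa1, at 3.31 in control and 2.33 in tagged cells, was just short of the 5'GRO-seq limit. Lpcat3, Rffl, Clec4e and Gatsl2 were higher than their reference in both comparisons.

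The lower sites were Slc39a11 (1.82 in WT and 0.51 in DKO) and Tpd52l1 (2.40 and 1.16). Among sites above the median level of all common peaks, the most negative differences were at near sites of Ccdc174 (−0.64), Polq, Nuf2 and Rad54l (−0.60, −0.60 and −0.57) and Tmem167b (−0.54). Polq is a DNA repair polymerase, Nuf2 a kinetochore gene and Rad54l a recombination gene (names chosen by value, not by a list). Smc6 and Rad54l2, at 9 bp, were higher at their sites, by 0.26 and 0.36, and so was Cdkn1a, the 1 cell cycle list gene with a promoter-like site, by 0.41. None reached 1, and the site values have 1 column for each genotype, so their spread between runs is unknown.

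Gene-wide GRO-seq gave the same clock genes with a view of the runs. The rule for a higher or lower gene was a difference of at least 0.5 between genotype means with no overlap of the WT and DKO runs. Of 287 genes with a promoter-like site 6 were higher (2.09%, against a background of 1.97% of 1220 genes) and 2 were lower (0.697%, against 0.738%). Counted at any size, the DKO runs lay above the WT runs in 16.4% of the 287 genes, against 18.4% of all, and below them in 8.36%, against 10.0%. The median difference was 0.04 both for the 287 genes and for all 1220. All 4 shares were close to those of the whole table. With 1 run left out, where fewer runs can overlap, 13 genes were higher without WT run 1, 15 without WT run 2 and 16 without DKO run 1, and 10 were lower without WT run 1 and 4 without DKO run 2.

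The WT runs gave 7.91 and 7.48 for Nr1d1 and the DKO runs 9.44 and 9.56, a difference of 1.81 that is the largest of the 287. The value covers the whole gene, so it does not check the deletion of the floxed part, and Nr1d1 overlaps Thra at its end, so that reads could be shared if strand was not used. Arntl read 10.17 and 10.31 in WT and 11.37 and 11.25 in DKO. Npas2 read 9.47 and 9.30 in WT and 10.38 and 10.34 in DKO, and Slc15a3 9.61 and 9.29 in WT and 10.35 and 10.31 in DKO. In all 4 genes the gap between genotypes exceeded the gap between runs of 1 genotype. The 2 remaining higher genes were little transcribed, Rem1 at 3.86 and 3.74 in WT and 4.47 and 4.63 in DKO, and Car11 at 5.99 and 5.18 in WT and 6.07 and 6.10 in DKO. The Car11 difference was at the limit, and it was 0.095 without WT run 2 and 0.485 without DKO run 2.

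Below the limit, Cpsf1, a subunit of the cleavage and polyadenylation complex, differed by 0.49 and Kdm6b, the H3K27 demethylase gene, by 0.42, both with runs apart. The lower genes were Galntl4 (8.61 and 8.94 in WT, 8.52 and 7.74 in DKO) and Tpd52l1 (4.55 and 4.88 in WT, 3.13 and 3.69 in DKO). The Galntl4 difference was −0.26 without DKO run 2 and −1.03 without DKO run 1, so its call rested on DKO run 2. Of genes above the lower quartile of level with runs apart, the next lowest were Mapk6 (−0.23), Smc6 (−0.22), Sf3a3 (−0.18), Plaur, the urokinase receptor gene (−0.18), and Mapk9 (−0.15). Some strongly bound sites were at genes with small differences. Leo1 (8.58 and 8.72 in WT, 8.80 and 8.93 in DKO) differed by 0.22, Ankrd40 by −0.07, Ptp4a2 by −0.06 and Sap25 by 0.06. Nr1d1, Arntl and Npas2, also among the most strongly bound, were higher in DKO as given above. A link between binding and the gene difference was not tested.

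**Figure D5:**
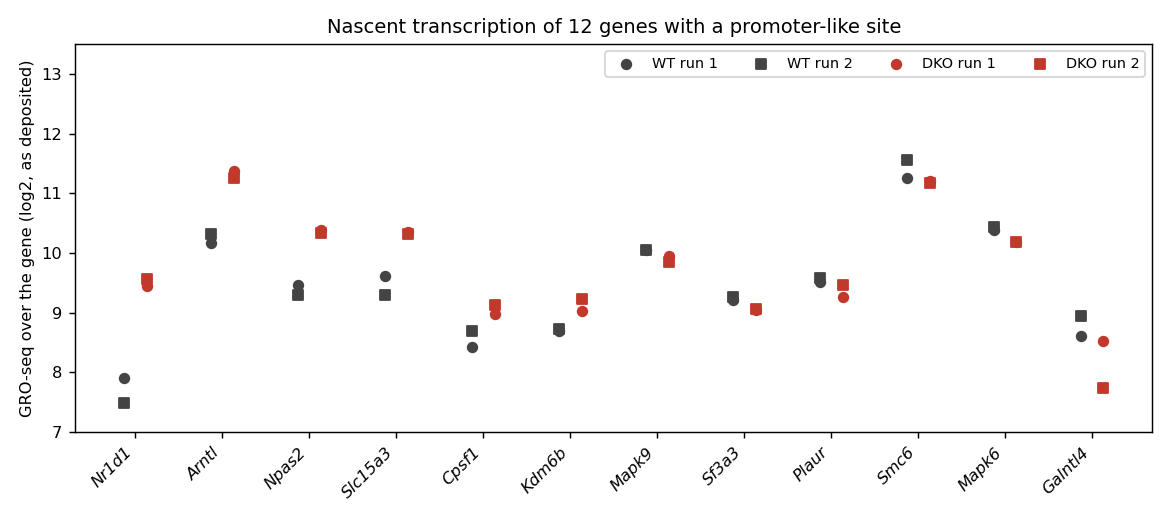
GRO-seq level over the gene (log2, as deposited) in each WT run (black) and each DKO run (red) for the 6 genes with the largest and the 6 with the most negative difference among genes with a promoter-like site, above the lower quartile of level and with runs apart. Nr1d1, Arntl, Npas2 and Slc15a3 lie higher in DKO by 0.88 to 1.81, and the others differ by 0.64 or less in size.

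The gene lists place the sites by function. Over all 1220 genes with a common peak, 23.5% had a promoter-like site, and no list was tested against that share. The clock list held 22 genes, 7 with a common peak and 4 with a promoter-like site, namely Nr1d1, Arntl, Npas2 and Clock. Their 5 sites had a median RevErb level of 7.82, against 5.48 for all promoter-like sites. Clock, the other main partner of BMAL1, had its site 532 bp from the start at 6.26, with 5'GRO-seq of 5.91 in control and 5.86 in tagged cells and a gene difference of −0.02. Its site GRO-seq was higher in DKO by 0.51. So 3 of these 4 clock genes were higher in DKO by the gene rule, beside 1.97% of all 1220 genes. The list was written with earlier results of these data known, and its genes without a promoter-like site are not covered here.

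Pattern recognition genes were the largest other list, with 5 of 9 genes that have a common peak carrying a promoter-like site. The receptor genes Tlr4 (8.67 in control and 8.95 in tagged cells), Tlr2 (9.38 and 9.73) and Cd14 (8.38 and 8.86) were slightly higher in tagged cells, and the adaptor genes Ticam1 (5.80 and 5.41) and Myd88 (8.91 and 8.37) slightly lower. None of the 5 differed by 1, and their gene differences between genotypes ran from −0.11 (Tlr4) to 0.28 (Tlr2). Macrophage identity genes had 4 of 8: Mpeg1 was lower by 1.20 in tagged cells, while Csf1r, the receptor for M-CSF (9.95 and 10.11), Itgb2 and Cd14 were not.

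Cytokine and chemokine genes had 3 of 13, Ccl3, Csf1r and Tnf. Tnf read 10.06 and 10.15 at a site 198 bp from its start, and Ccl3, whose window holds the flanked core site, 5.79 and 5.67. Of immediate early genes 2 of 16 had a promoter-like site, Ier2 (7.85 and 7.27) and Atf3 (11.45 and 11.66 at its near site, the highest level of the 301 sites). Of macrophage transcription factors only Irf5 of 13 had one (8.53 and 7.75), of lipid genes only Lpcat3 of 10, of lysosomal genes Ctsd and Plaur of 11, and of cell cycle genes only Cdkn1a of 6 (5.99 and 5.05). Chromatin and cofactor genes had 4 of 10, of which Brd2 (9.73 and 8.90) and Arid1a were lower by under 1 and Irf2bpl by 1.37. Energy metabolism genes had 2 of 5, Pkm (5.66 and 4.54) and Cpt1a (7.79 and 7.63), and translation genes 1 of 1, Eif4e (7.54 and 6.80). Neither of the 2 RNA processing genes with a peak had one, and no gene of the hepatocyte and lymphocyte lists had a common peak.

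For 53 of the 287 genes the table also assigned an enhancer-like site, which allows the kinds of site to be set side by side within a gene. The median 5'GRO-seq difference was −0.03 at the promoter-like and −0.17 at the enhancer-like sites of these genes. The enhancer-like value was the lower in 27 of the 53 genes. In the 32 genes with a near site the medians were 0.02 and −0.14, the enhancer-like value was the lower in 13 of 32, and binding was stronger at the enhancer-like site in 22 of 32, beside 28 of all 53. Where a gene had several sites of a kind the highest binding was taken, which favours the kind with more sites. At Arntl the enhancer-like sites 62917 and 21279 bp upstream differed by −2.46 (−1.64 with the tagged level raised to 3 tags) and −1.84, beside −1.38 at the start. At Nr1d1 the enhancer-like site 8318 bp upstream differed by −1.43, beside −4.53 and −4.47 at the promoter-like sites. Within these genes neither kind of site was lower as a rule.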

How the data were processed

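Values at the sites were deposited by the authors as log2 of tags per 10000000 plus 1, counted in 157 bp (ChIP-seq) or 500 bp (5'GRO-seq), and GRO-seq values as log2 values, per the file headers. The submitters' processing notes name Bowtie 0.12.7, HOMER and mm9. Settings of the peak caller and the limits on histone marks are not given in the sources used here. Peak class, distance and gene were the authors'. Runs were averaged on the log2 scale, and 0 columns with values of a sample stayed out. Tags were estimated from levels and library totals. RevErb runs had 598490 to 5276592 tags, BirA 10548880, and the 5'GRO-seq libraries 18708148 (control) and 7238710 (tagged RevErbalpha). Shares have exact Clopper-Pearson 95% intervals for counting error only. Calculations used Python 3.11.15, pandas 2.3.3 and scipy 1.17.1, and counting rules and motif search were checked on simulated data.

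The members and gene lists were chosen with earlier results of these data known. Named were the 10 near and 5 far sites with the highest RevErb level, the sites with the 8 most negative and 5 most positive 5'GRO-seq and 5 most positive and negative GRO-seq differences among sites above the median level, the 6 genes at either end with runs apart above the lower quartile, Nr1d1, up to 4 members of each list, and sites at the 1000 bp limit. Further sites past a limit, sites of gene pairs and silent or highly initiating far sites were named after their values were seen. Alternatives were 10 added before the logarithm, level filters, centring, 1 site per gene, other distance and size limits and runs left out. Raising low levels to 3 tags, and restricting the motif share to sites inside the sequence window, were added after seeing the data. Results of the heat shock and ubiquitin list are not reported here.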

Additional observations from a re-analysis of the deposited data

How the results depend on the processing

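Groups have 1 sample each, so no alternative tests a difference. Medians of 5'GRO-seq moved to 0.15 near and reversed to 0.10 far when centred, and to −0.25 far with sites above the lower quartile of level. At 500 to 1000 bp downstream the median was −0.47 with 10 added and −0.36 centred. Sites lower in tagged cells numbered, near, 3 with a limit of 500 bp, 35 at a difference of 0.5 and 4 at 2. In the far set they numbered 10 with 10 added, 11 above the quartile, 46 at 0.5, 7 at 2 and 16 with levels raised to 3 tags. Higher near sites numbered 1 when centred and 10 at 0.5. Higher far sites numbered 1 with 10 added, 1 above the quartile, 12 centred, 24 at 0.5, 0 at 2 and 3 with levels raised. Site GRO-seq with 10 added left 0 near and 1 far sites higher and 0 far sites lower. Above the quartile it left 2 far sites higher and 0 lower, and 3 far sites were higher with near taken as 2500 bp. RevErbbeta minus RevErbalpha was 0.57 near and 0.87 far in the deeper runs, −0.13 to 0.23 near and 0.028 to 0.53 far with 1 run left out. Genes higher in DKO numbered 6 to 16 and genes lower 3 to 10 with 1 run left out, where fewer runs can overlap, and 1 gene was lower above the quartile. The 16 were reached without DKO run 1, and the 10 without WT run 1. Among named sites the 5'GRO-seq difference changed sign when centred at Ptp4a2 (0.06), Utp6 (0.10), Igsf8 (0.11), Polq (0.12), Ankrd40 (0.15), Cpsf1 (0.19) and Mapk9 (0.22), or 7 of 49 sites. TAGGTCA shares stayed within the interval given. The shallow runs hold few tags per site, which limits single values, and GRO-seq depth per site is unknown. No paired analysis was possible because each group has 1 sample, and the run numbers in the column names are not said to pair runs.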
